A study of Mus musculus with 16 samples.

Results

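Genes for 4 families of splicing factors were followed in mouse embryonic stem (ES) cells before and after gamma irradiation. A gene was included when a probe set with exactly 1 annotated symbol began with Sf3a or Sf3b, Srsf and a digit, Snrp, or Hnrnp, and each gene was read from the probe set with the highest mean intensity over the 16 arrays. That gave 43 of the 12393 genes named on the array: 9 SF3 genes, 9 SR genes, 8 snRNP genes and 17 hnRNP genes. They hold 114 probe sets, and the chosen probe set of all 43 passed the filter on low values. A further 14 probe sets that carry several symbols matched the same names and were not used.

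Introns are removed by the spliceosome, which is built from small nuclear ribonucleoproteins (snRNPs). The U1 particle binds the 5′ splice site and the U2 particle the branch point, and a ring of Sm proteins sits on the RNA of each of them. The SF3a and SF3b complexes are parts of the U2 particle and hold it on the branch point. SR proteins bind exon sequences and mostly promote the use of nearby splice sites, whereas hnRNP proteins coat the nascent transcript and often repress or shift splice site choice. Many SR and hnRNP genes limit their own mRNA through exons that send it to decay.

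The study used ES cell lines derived from single blastocysts of a heterozygous intercross, on a mixed 129/C56Bl/6 background. WT cells carry 2 intact copies of the gene under study, and KO cells are homozygous for its inactivated allele. Each genotype was sampled growing (3 arrays), 2 h after gamma irradiation (3 arrays) and 24 h after it (2 arrays). Cells lysed at 2 h are labelled as having received 8 Gy; for 24 h the sources used here give no dose. All 6 groups grew with LIF on mitomycin-treated embryonic fibroblasts, and a short step on gelatin was meant to take the fibroblasts out before lysis. No unirradiated cells were kept for the same times, so irradiation and time in culture cannot be told apart. Nothing in the labels says that replicates came from separate cultures, so the p-values rest on a spread between arrays that may be only technical. In bulk RNA, fewer cells of a type and less RNA per cell cannot be told apart either.

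On every array the ES cell marker Pou5f1 was bright, at 873 to 1625. For 17 pluripotency genes the summed level was lower at 24 h in WT without overlap, at 12900 to 14000 against 14480 to 15140 growing. In KO that sum overlapped, at 12700 to 14520 at 24 h against 13540 to 15870 growing. The summed level of 20 measured fibroblast genes was 1225 to 3663 in growing WT, 2611 to 2831 in WT at 24 h, 1465 to 2297 in growing KO and 2431 to 3182 in KO at 24 h. The groups overlapped in WT and not in KO. The lowest readings of the defining fibroblast markers were 41.2 (Thy1), 37.0 (Col1a2), 15.2 (Col1a1), 12.5 (Col3a1), 8.99 (Postn), 6.21 (Lum) and 1.69 (Dcn). These levels do not show how much fibroblast RNA was left. The summed level of 16 primitive endoderm genes was also higher at 24 h, at 1897 to 2419 against 1146 to 1702 in WT and at 2311 to 2810 against 1867 to 1950 in KO. The part of any of these marker sums in the results below was not tested. The 3′ to 5′ signal ratio of actin was 1.02 to 1.28 over the 16 arrays. An 18S probe set exceeded 300 on 2 arrays, growing WT replicate 1 and 2 h KO replicate 2.

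The splicing factor probe sets were bright, with 42 of 43 above the median of all genes, 61.99. Only Snrpn, an Sm protein gene of the imprinted Prader-Willi region, was below it. Because a probe set's brightness also depends on its probes, these levels do not order the genes by abundance. The chosen probe sets of 9 genes carry an identifier for cross-hybridising probes, so their readings may not be specific to the gene. These genes are Sf3a2, Srsf1, Srsf2, Snrpa1, Snrpe, Snrpg, Hnrnpa1, Hnrnpab and Hnrnpll.

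At 24 h after irradiation, part of the splicing factor genes were lower than in growing cells of the same genotype. In WT, 11 of the 43 genes fell and 0 rose (limma with Benjamini-Hochberg adjustment over 17736 probe sets, threshold 0.05). Over all 10252 tested genes, 3.19% fell and 6.26% rose in the same comparison. In KO, 6 of 43 fell and 0 rose, against 3.2% and 5.63% of all genes. Among the 3868 genes with a mean intensity of at least 100, the share that fell was 7.37% in WT and 7.37% in KO. Of the 43 splicing factor genes, 25.6% and 14% fell. That floor was passed by 42 of the 43 genes, but their median was far above it, at 680. The 3868 genes are therefore not matched to the set in brightness. The median log2 difference of the 43 genes was -0.37 in WT, where it was 0.04 for all genes, and -0.27 in KO, where it was 0.11 for all genes.

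The direction was shared by most of the set. The log2 difference was below 0 for 37 of 43 genes in WT and 32 of 43 in KO, beside 44.9% and 36.9% of all genes. Among the 3868 brighter genes 52.6% and 54.6% were below 0, with medians of -0.02 in WT and -0.04 in KO. It was below 0 in both genotypes for 31 genes, 72.1% of the set, against 26.5% of all genes. The 24 h and growing arrays did not overlap, with the 24 h arrays lower, for 24 genes in WT and 18 in KO. The same held for 15.2% and 14.3% of all genes, dim ones included. The WT and KO comparisons share no array, but they come from the same fit. In both genotypes growing replicate 3 was hybridised on the second day and the 24 h arrays were not.

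The calls rested on few arrays. Against the growing mean of its genotype, the median of the 43 genes was -0.34 and -0.27 on the 2 WT arrays at 24 h and -0.28 and -0.20 on the 2 KO arrays, so all 4 arrays lay below 0. Without WT 24 h replicate 1 the number of genes that passed the test in WT went from 11 to 0, and the number of all probe sets from 1527 to 281. Without KO 24 h replicate 1 it went from 6 to 0 in KO, and from 1423 to 240 over all probe sets. In these fits the lone remaining array is assumed to vary like the other groups. Without growing WT replicate 1 the count was 6 in WT, and without growing KO replicate 1 or 3 it was 1 in KO. Without the second hybridisation day, which held growing and 2 h arrays and none at 24 h, the counts were 4 in WT and 0 in KO. After quantile normalization, which moved the median of all probe sets in KO from 0.11 to -0.01, the median of the 43 genes was -0.17 in KO and -0.31 in WT, with 4 and 12 genes lower. Within a run only 1 array at 24 h could be set against 1 growing array of its genotype. The median was -0.32 in WT (run 1, replicate 1 of both) and -0.17 in KO (run 3, replicate 2 of both). The WT pair holds the 24 h array named above and a growing array of high 18S signal.

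**Figure D1:**
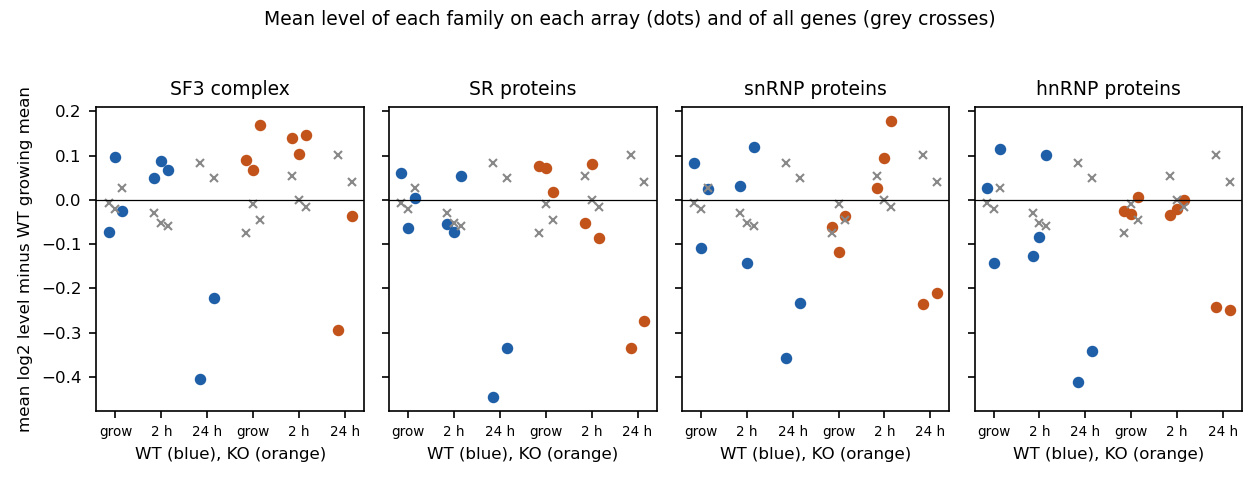
Mean log2 level of each family on each array, relative to the mean of growing WT cells (dots, WT blue, KO orange), with the mean of all tested genes on the same array (grey crosses). In every family the 4 arrays at 24 h lie below 0, whereas the crosses of these arrays lie above 0. The SF3 mean of KO 24 h replicate 2 is the closest to 0, at -0.04.

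The clearest group was SF3a. Its 3 subunit genes, Sf3a1, Sf3a2 and Sf3a3, each fell in both genotypes by their chosen probe sets. They account for all SF3 genes that passed the test. The KO calls of Sf3a2 and Sf3a3 were near the threshold and were lost in 15 and 19 of 27 alternatives. SF3a joins the U2 particle late in its maturation. The promoters of the SF3a genes are shown because all 3 hold the sequence CCGGAAG, a core bound by ETS-family factors, on one strand or the other. Windows run from 250 bases before to 50 after the annotated start (RefSeq, GRCm38.p6, plus strand), and capitals mark the match. The Sf3a1 window is chr11:4160104-4160403, the Sf3a2 window is chr10:80798485-80798784 and the Sf3a3 window is chr4:124714611-124714910, where the match is on the minus strand and therefore reads CTTCCGG.
Sf3a1: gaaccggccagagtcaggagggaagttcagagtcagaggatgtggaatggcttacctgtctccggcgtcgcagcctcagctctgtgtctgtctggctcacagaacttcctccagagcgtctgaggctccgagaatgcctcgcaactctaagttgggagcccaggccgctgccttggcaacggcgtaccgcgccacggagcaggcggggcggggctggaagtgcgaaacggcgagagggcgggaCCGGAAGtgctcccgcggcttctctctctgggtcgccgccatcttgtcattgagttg
Sf3a2: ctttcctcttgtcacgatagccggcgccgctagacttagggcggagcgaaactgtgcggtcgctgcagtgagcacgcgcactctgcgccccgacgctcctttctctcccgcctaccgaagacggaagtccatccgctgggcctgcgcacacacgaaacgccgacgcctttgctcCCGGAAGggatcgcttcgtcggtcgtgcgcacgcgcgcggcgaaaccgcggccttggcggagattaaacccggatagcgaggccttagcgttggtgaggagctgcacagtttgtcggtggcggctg
Sf3a3: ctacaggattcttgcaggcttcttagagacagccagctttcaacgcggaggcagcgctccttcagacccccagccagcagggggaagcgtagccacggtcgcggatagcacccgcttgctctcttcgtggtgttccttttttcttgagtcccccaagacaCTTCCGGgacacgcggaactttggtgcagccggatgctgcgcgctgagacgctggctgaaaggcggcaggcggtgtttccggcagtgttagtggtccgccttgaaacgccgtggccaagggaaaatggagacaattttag

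The match starts 7, 76 and 90 bases before the annotated start in Sf3a1, Sf3a2 and Sf3a3. Of 27025 promoters, 9.12% hold CCGGAAG on either strand, and 14 (36.8%) of the 38 splicing factor genes with a listed promoter do. Of the 12 genes that fell at 24 h in either genotype 3 hold it, the SF3a genes, and of the other 26 genes 11 do. The GC box GGGCGG was in 25 of the 38 (65.8%) and in 35.91% of all promoters, and 10 of the 12 genes that fell hold it. The CCAAT box was in 19 of 38 and in 37.92% of all promoters. These were 3 of 8 motifs searched after the 24 h results were known, and a match is a description of the letters only.

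Sf3a1 read 335, 433 and 451 on the 3 arrays of growing WT cells and 215 and 254 at 24 h. In KO it read 453, 435 and 444 growing and 298 and 278 at 24 h. At 2 h every array was above those at 24 h, at 435, 478 and 412 in WT and 431, 485 and 412 in KO. The 24 h groups did not overlap the growing ones in either genotype, and the log2 difference was -0.75 ± 0.14 (SE, adjusted p = 0.00299) in WT and -0.60 ± 0.14 (adjusted p = 0.0147) in KO. A second, dimmer Sf3a1 probe set gave -0.07 and -0.10 and did not pass the test.

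Sf3a2 fell from 577, 561 and 487 to 239.8 and 454 in WT, so WT replicate 1 at 24 h was much lower than replicate 2. In KO it fell from 624, 577 and 608 to 376 and 400.5. The 2 h arrays read 455, 549.8 and 532 in WT and 549, 569.6 and 597 in KO. The log2 difference was -0.68 (95% interval -1.06 to -0.30, adjusted p = 0.0241) in WT and -0.61 (-0.99 to -0.24, adjusted p = 0.0435) in KO. Without WT 24 h replicate 1 the WT value was -0.24. A second, dimmer Sf3a2 probe set gave -0.67 in WT and -0.25 in KO and did not pass the test.

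Sf3a3 fell from 431, 473 and 349.7 to 269 and 279 in WT, a log2 difference of -0.57 (adjusted p = 0.0351). In KO it fell from 451, 377 and 452 to 233 and 354, a difference of -0.54 (adjusted p = 0.0488), and the value was -0.26 without KO 24 h replicate 1. At 2 h it read 445, 396 and 431 in WT and 438, 392 and 375 in KO. Both probe sets of Sf3a3 fell in both genotypes.

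None of the 6 genes named Sf3b passed the test at 24 h. Sf3b1, the largest subunit and the one that clamps the branch-point adenosine, read 629.5, 778 and 611 in growing WT, 859, 755 and 788 at 2 h, and 782 and 698 at 24 h. Values in KO were 768, 729.7 and 890.3, then 763, 747 and 842, then 827 and 790.5, and all states overlapped. Its log2 difference was 0.14 (-0.14 to 0.42) in WT and 0.03 (-0.26 to 0.31) in KO, and all 3 of its probe sets lay above 0 in both genotypes. Sf3b5, a small subunit of the SF3b core, read 545, 615 and 449.6 growing, 613, 647 and 598 at 2 h, and 663 and 640.5 at 24 h in WT, a 24 h difference of 0.28 (adjusted p = 0.248). In KO its 24 h arrays of 581 and 780.1 lay either side of most others, which read 607, 576 and 629 growing and 596, 666 and 617 at 2 h. Sf3b4, an RNA-binding subunit, read 550.3, 758 and 781 in growing WT and 419.8 and 542 at 24 h, and 667, 772 and 828 in growing KO and 680.1 and 568 at 24 h. It had a WT difference of -0.51 (adjusted p = 0.0778) and a KO difference of -0.27 (adjusted p = 0.358). The remaining 3, Sf3b2, Sf3b3 and Sf3b6, had WT differences of -0.26, -0.30 and -0.17.

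SR genes held the largest fitted difference of the set, which rested on 1 array. Srsf2, which encodes SC35, the classic marker protein of nuclear speckles, read 1688, 1289 and 1297 in growing WT and 414 and 857 at 24 h. That was a log2 difference of -1.22 ± 0.26 (adjusted p = 0.00791), or 2.33-fold lower. Without WT 24 h replicate 1 it was -0.71 (adjusted p = 0.228), and Hnrnpl then had the lowest value. The KO arrays read 1425, 1650.3 and 909.7 growing and 983 and 677 at 24 h, and these groups overlapped (-0.65, adjusted p = 0.134). At 2 h the gene read 1334, 1378 and 1279.9 in WT and 1312, 1843 and 1317 in KO, all above the 24 h arrays. Of its 4 probe sets, 3 fell in WT, and 2 fell in KO, with differences of -0.65 and -0.69.

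Srsf1, the founding SR protein SF2/ASF, fell in WT from 1012, 806 and 849 to 421 and 671, a log2 difference of -0.72 (adjusted p = 0.00965). The KO arrays read 808, 848 and 753 growing and 521 and 598 at 24 h, with no overlap (-0.51, adjusted p = 0.0578). Arrays at 2 h stayed at 879, 864 and 852 in WT and 820.4, 862 and 742 in KO. In WT 5 of its 6 probe sets fell, by as much as 1.29 on the log2 scale, and 1 of 6 fell in KO. Without WT 24 h replicate 1 the WT difference of the chosen probe set was -0.39.

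Srsf10 encodes an SR protein that acts as a repressor when dephosphorylated, and it was the one SR gene that fell in both genotypes. It read 195, 188 and 235 in growing WT and 142 and 141 at 24 h (-0.49, adjusted p = 0.0447). KO cells gave 241, 236 and 232 growing and 166 and 147 at 24 h (-0.55, adjusted p = 0.0278). At 2 h the values were 215, 187 and 264 in WT and 214, 231 and 199 in KO. The WT call was near the threshold and was lost in 16 of 27 alternatives.

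Srsf6, a regulator of exon inclusion, fell in WT from 1358, 1365 and 1269 to 906 and 974 (-0.49, adjusted p = 0.0281). The KO arrays read 1340.3, 1450.0 and 1466 growing and 908 and 1252 at 24 h (-0.41, adjusted p = 0.0721). At 2 h Srsf6 read 1447, 1308 and 1414 in WT and 1625, 1432 and 1427 in KO, above every 24 h array. Srsf9 fell in KO from 600.2, 671 and 525 to 358 and 396 (-0.64, adjusted p = 0.0433). In WT it read 550.2, 645 and 660.2 growing, 623, 639 and 613 at 2 h, and 508 and 412 at 24 h, without overlap (-0.42, adjusted p = 0.189). By the chosen probe set, each of these 2 genes passed the test in 1 genotype and had separate groups in both. Of the 3 Srsf6 probe sets 2 fell in WT, and another fell in KO (-0.63, adjusted p = 0.0389).

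Srsf3, the smallest SR protein and an export adaptor, had differences of -0.53 (adjusted p = 0.0602) in WT and -0.37 in KO, and 1 of its 6 probe sets fell in WT. The other SR genes were not lower in WT. Srsf4 differed by 0.14 and 0.04, and Srsf11 by 0.17 and 0.14, in WT and KO. Srsf11 read 697, 865 and 746 growing, 811, 735 and 866 at 2 h, and 909 and 818 at 24 h in WT, and 851, 778 and 996, then 718, 719 and 836, then 874 and 1063 in KO. Srsf5, the brightest SR probe set, read 2014, 1505 and 1744 in growing WT, 1208, 1546 and 1687 at 2 h, and 2246 and 1459.9 at 24 h. KO cells gave 2044, 1737 and 2395, then 1859.6, 1817 and 1636, then 1783 and 1539.8, and the 24 h groups overlapped the growing ones in both genotypes. Its differences were 0.06 in WT and -0.30 in KO, with adjusted p of 0.906 and 0.343.

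**Figure D2:**
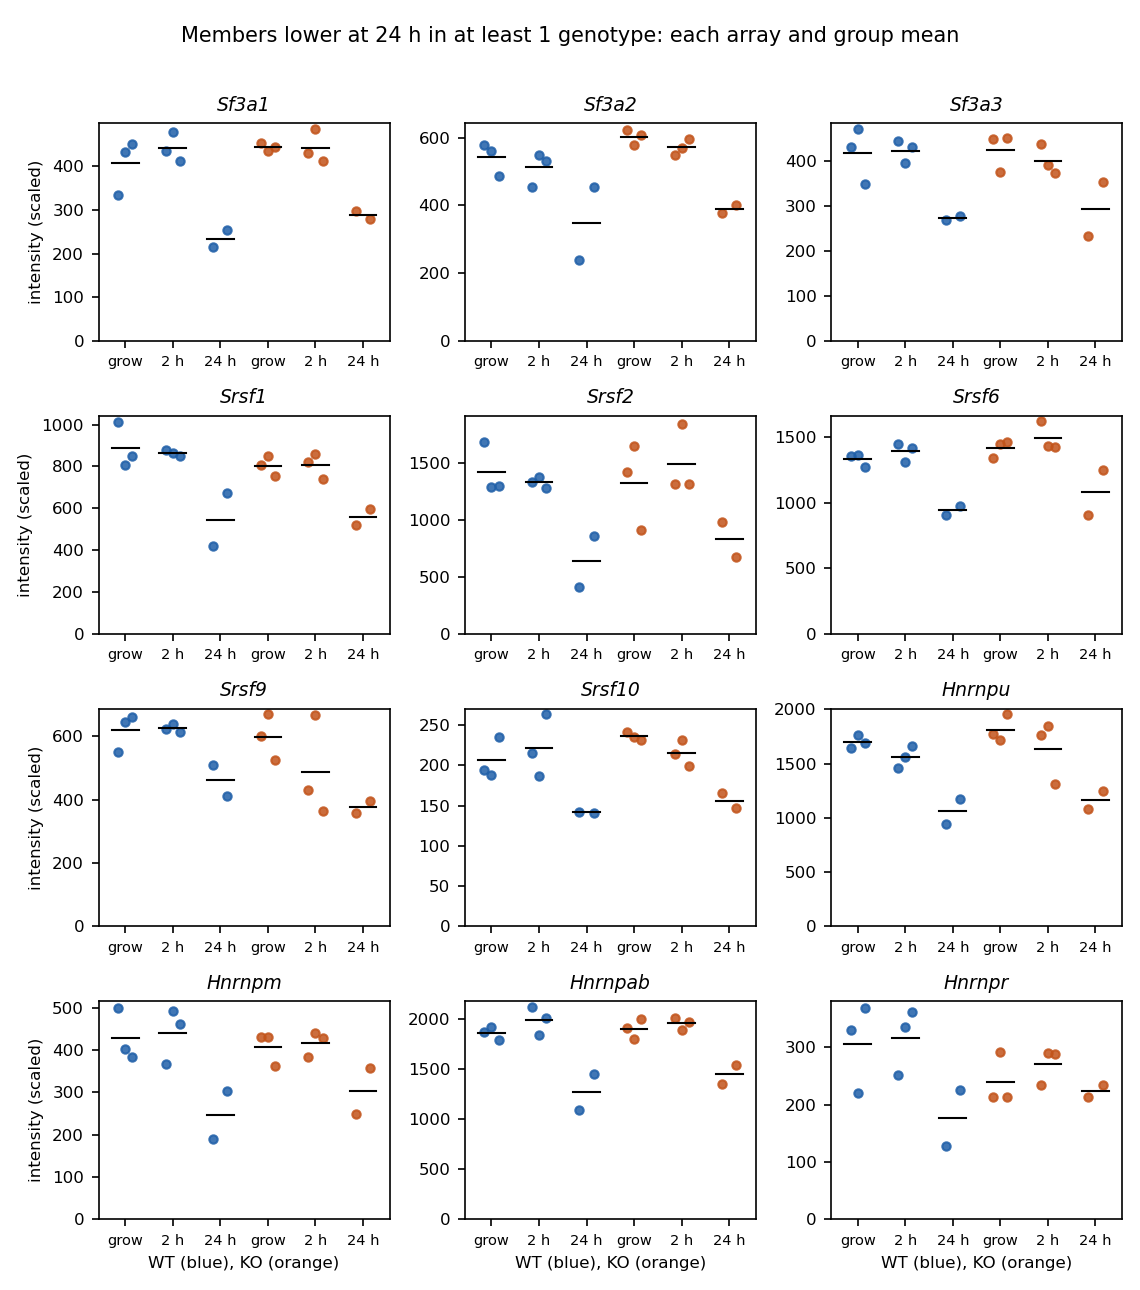
Scaled intensity on each array (dots, WT blue, KO orange) with the group mean (bar) for the 12 genes that were lower at 24 h in at least 1 genotype; every axis starts at 0. Growing and 2 h arrays sit at similar levels in most panels, and the 24 h arrays sit below the growing ones, except that 24 h and growing arrays overlap for Hnrnpr in both genotypes and for Srsf2 in KO.

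None of the 8 snRNP genes passed the test at 24 h in either genotype, although all 8 had WT differences below 0. The 4 Sm ring genes other than Snrpn differed in WT by -0.22 (Snrpb), -0.52 (Snrpd3), -0.25 (Snrpe) and -0.12 (Snrpg). Snrpe read 1426, 1321 and 1516 in growing WT and 1165 and 1222 at 24 h, without overlap. Its KO arrays at 24 h, 1407 and 1275, reached into the growing range of 1276, 1433 and 1496, and its 2 h arrays were 1230.1, 1266 and 1435 in WT and 1606, 1581 and 1487 in KO. Snrpg, the brightest snRNP probe set, read 1446, 1666 and 2003 growing, 1696, 1646 and 2079 at 2 h, and 1427 and 1702 at 24 h in WT. KO cells gave 1863, 1688 and 2113, then 1895, 2010.3 and 2013, then 1795 and 1632, and growing and 24 h arrays overlapped in both. The U1 protein gene Snrpc differed by -0.02 in WT and 0.07 in KO.

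Of the U2 protein genes, Snrpa1 had WT and KO differences of -0.40 and -0.28 and Snrpb2 of -0.11 and -0.10. One of the 3 Snrpa1 probe sets, which carries an identifier for cross-hybridising probes, fell in KO by 1.07 on the log2 scale (adjusted p = 0.015). Snrpn read 26.7, 11.6 and 26.3 in growing WT and 2.52 and 10.7 at 24 h. These values lie around the filter on low values, an intensity of 11.9, and its difference of -0.73 had an adjusted p of 0.075.

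Among hnRNP genes 4 of 17 (23.5%) fell in WT and 1 of 17 (5.88%) in KO. Of the 3868 genes with a mean intensity of at least 100, 7.37% fell in each genotype, more than the hnRNP share in KO. Hnrnpu, which encodes the scaffold attachment factor SAF-A that binds chromatin-associated RNA, fell in both. It read 1641, 1767 and 1689.6 in growing WT and 947 and 1175 at 24 h (-0.68 ± 0.15, adjusted p = 0.00865). KO cells gave 1771, 1717 and 1956 growing and 1085 and 1247 at 24 h (-0.63 ± 0.15, adjusted p = 0.015). At 2 h the arrays read 1460.1, 1559 and 1659 in WT and 1760.2, 1844 and 1309 in KO. The 24 h arrays were lower without overlap in both genotypes, and the same 3 of its 5 probe sets fell in each.

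Hnrnpm, a regulator of exon skipping, fell in WT from 499, 401 and 384 to 189 and 303 (-0.79, adjusted p = 0.0153), and the difference was -0.47 (adjusted p = 0.313) without WT 24 h replicate 1. The KO arrays read 430.4, 432 and 361 growing and 248 and 358 at 24 h (-0.43, adjusted p = 0.176). Its 2 h values were 367, 492 and 462 in WT and 383, 439.8 and 428 in KO, at the level of growing cells. Hnrnpab fell in WT from 1869, 1918 and 1794 to 1091 and 1451 (-0.56, adjusted p = 0.0136), which was -0.35 (adjusted p = 0.27) without WT 24 h replicate 1. In KO it went from 1909.7, 1798 and 2003 to 1356 and 1547 without passing the test (-0.39, adjusted p = 0.0778). At 2 h Hnrnpab read 2127, 1842 and 2011 in WT and 2011, 1892 and 1973 in KO. The 24 h arrays did not overlap the growing arrays for either gene in either genotype.

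The 7 probe sets of Hnrnpab did not move together. A second bright one fell in KO (-0.57, adjusted p = 0.0161). Another, with a mean intensity of 1205, rose in KO by 1.61 (adjusted p = 0.0159), and in WT its difference was 0.96 (adjusted p = 0.134). It was the only one of the 111 tested splicing factor probe sets that rose at 24 h in either genotype.

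Hnrnpr fell in WT from 329.6, 220.5 and 368 to 128 and 225, a difference of -0.76 (adjusted p = 0.0433). WT 24 h replicate 2 lay within the growing range, and without replicate 1 the difference was -0.39. In KO it read 212, 291 and 214 growing and 214 and 234 at 24 h (-0.08, adjusted p = 0.868). The 2 h arrays read 252, 336 and 362 in WT and 234, 290.0 and 288 in KO. The genotypes' 24 h differences differed by 0.68 (interaction, unadjusted p = 0.0464, adjusted p = 0.996). Of the 3 probe sets of Hnrnpr, 2 fell in WT and 1 in KO.

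Hnrnpl had the second largest WT difference, -1.05, but it varied widely. It read 147, 172 and 627 in growing WT and 118 and 110.2 at 24 h, so the third array of growing cells was far above the others (adjusted p = 0.158). Without that array the difference was -0.43. At 2 h it read 135, 176 and 400.1 in WT, and in KO it read 179, 215 and 348 growing, 212, 202 and 275 at 2 h, and 176 and 136 at 24 h. In each of the 4 groups with 3 arrays the highest Hnrnpl value was that of replicate 3, the array hybridised on the second day, and no 24 h array was hybridised on that day. The brightest hnRNP probe sets were those of Hnrnpdl and Hnrnpc. Hnrnpdl read 2028, 2154 and 2419 in growing WT, 2318, 1911 and 2505 at 2 h, and 1741 and 1658 at 24 h (-0.37, adjusted p = 0.164). In KO it read 2268, 1909 and 2737, then 2183, 2129.7 and 2472, then 1660.5 and 1915, and a second of its probe sets fell in both genotypes, by 0.58 and 0.70 on the log2 scale. Hnrnpc, whose protein forms the classic hnRNP core tetramer, read 1929.8, 1848 and 1889 growing, 2254, 1957 and 2335 at 2 h, and 1936 and 1827 at 24 h in WT (-0.01). KO cells gave 1932, 1908 and 1965, then 2160.2, 1975 and 2337, then 1902 and 2244 (0.09), whereas its dimmer probe set fell by 0.58 in WT and 0.71 in KO.

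Hnrnph3 was the one hnRNP gene whose difference was above 0 in both genotypes by more than 0.1, at 0.20 and 0.18. It read 154, 112 and 131 in growing WT and 181 and 129 at 24 h, and in KO 152, 132 and 145 growing and 228 and 116 at 24 h. Its 2 h arrays read 142, 122 and 149 in WT and 133, 145 and 147 in KO. The KO replicates at 24 h lay on opposite sides of the KO growing range. Hnrnph2, on the X chromosome, read 133, 138 and 108 in growing KO and 87.0 and 70.3 at 24 h (-0.59, adjusted p = 0.0717), and in WT, at 178, 92.3 and 143 growing and 116 and 108 at 24 h, its groups overlapped (-0.23). At 2 h it read 103, 126 and 108 in WT and 115, 105 and 129.7 in KO.

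Counted over every tested probe set of the families, 29 of 111 fell in WT and 19 of 111 in KO. Over all probe sets, dim ones included, 3.24% and 3.02% fell. The calls in the families belonged to 15 genes in WT and, with the Hnrnpab probe set that rose, 14 genes in KO.

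**Figure D3:**
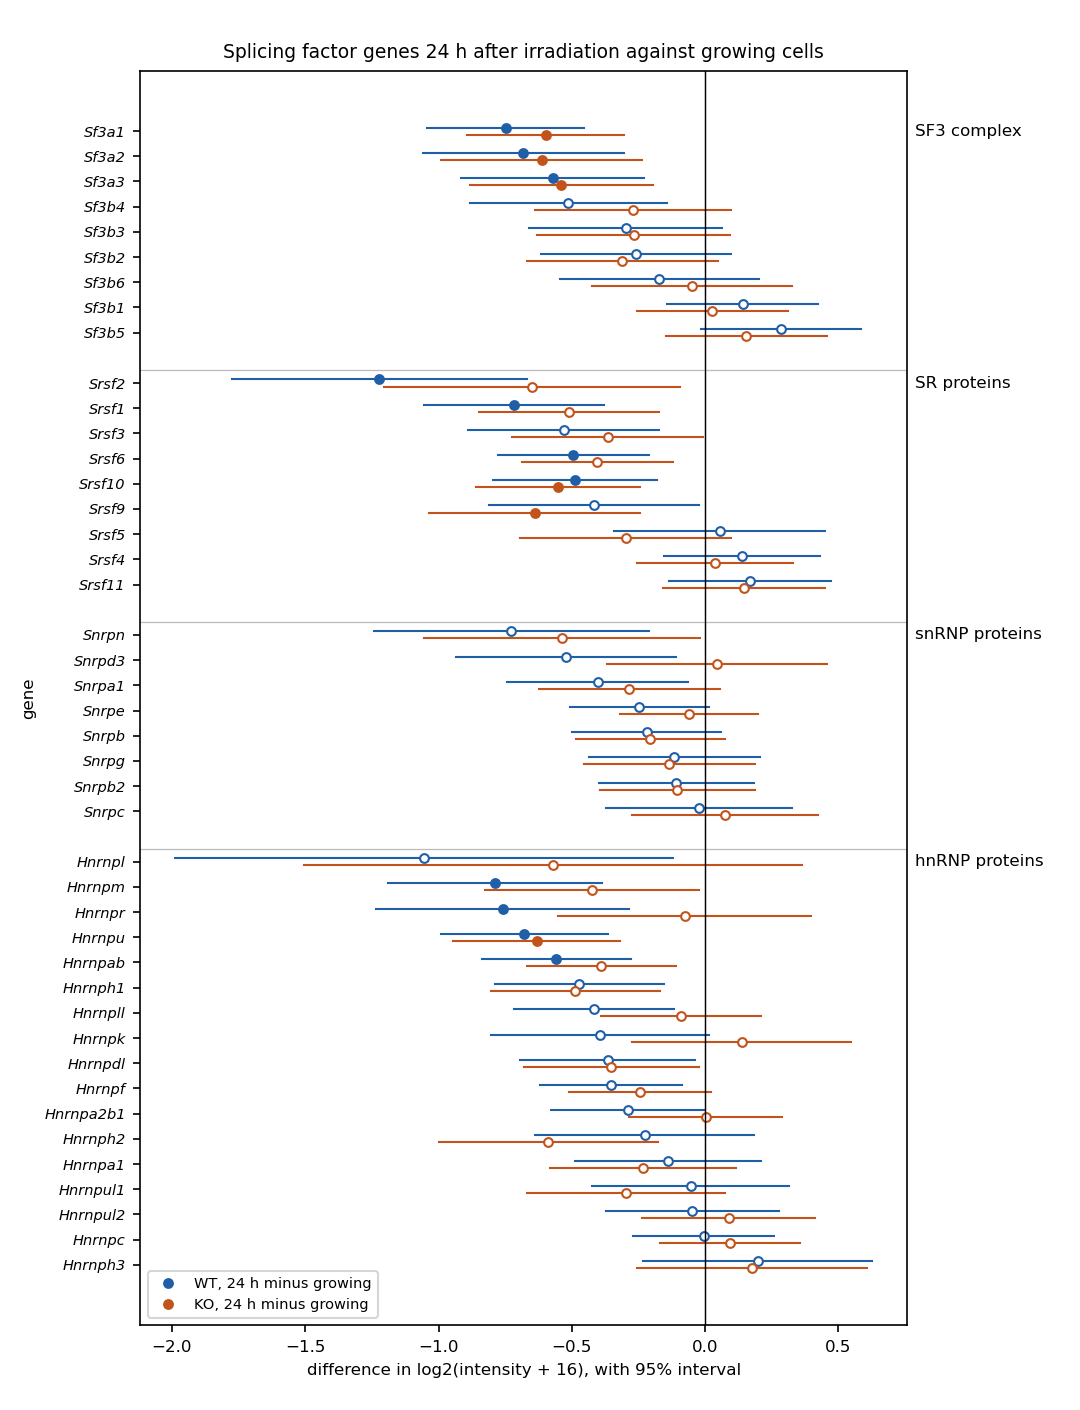
Difference in log2(intensity + 16) between 24 h and growing cells for all 43 genes, in WT (blue) and KO (orange), with 95% intervals; filled points passed the test (adjusted p under 0.05) and open points did not. Within each family genes are ordered by the WT value. Sf3a1, Sf3a2, Sf3a3, Srsf10 and Hnrnpu are filled in both colours.

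The 5 genes lower in both genotypes were Sf3a1, Sf3a2, Sf3a3, Srsf10 and Hnrnpu, which is 45.5% of the genes that fell in WT and 83.3% of those that fell in KO. Over all genes the shares were 50.2% and 50%, and 1.6% of all genes were lower in both. The 24 h difference itself was tested between genotypes as an interaction, and 0 of 43 splicing factor genes passed, with 0% of all genes. At an unadjusted p under 0.05 the interaction found 1 splicing factor gene, Hnrnpr, and 851 of 17736 probe sets. The median 95% interval of the interaction, which is not adjusted for the number of probe sets, reached 0.48 to either side on the log2 scale. Even the 0.68 of Hnrnpr did not pass after adjustment. The absence of calls therefore does not show that the genotypes changed alike. The WT difference was the lower of the 2 for 29 of 43 splicing factor genes and for 5625 of all 10252 genes.

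Splicing genes outside the 4 families were read from a list of 147 genes, of which 120 were measured. At 24 h 17 of them fell and 3 rose in WT, and 11 fell and 1 rose in KO, with medians of -0.17 and -0.14. Of all genes 3.19% fell and 6.26% rose in WT, and 3.2% fell and 5.63% rose in KO. Among the genes with a mean intensity of at least 100, 7.37% fell in each genotype. Neither background is matched to the 120 genes in brightness. The largest falls in WT were Syncrip, an hnRNP relative (-0.97), Sfpq, a paraspeckle protein (-0.96), and Rbm25 (-0.81). In KO they were Phf5a, which is itself a subunit of SF3b (-0.88), Sfpq (-0.81) and Sart3, a recycling factor for U4 and U6 (-0.79). Phf5a averaged 887 ± 166 (SD, n = 3) in growing WT and 546 ± 34 (n = 2) at 24 h, and it also fell in WT (-0.67), so 1 SF3b subunit outside the naming rule did fall in both genotypes.

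Among factors that find the branch point and the 3′ splice site, Sf1 (-0.70) and U2af1 (-0.59) fell in WT, and 0 of the 4 on that list passed in KO, where the median was -0.42. For the genes that assemble Sm rings, 3 of 12 fell in each genotype. Prmt5, which methylates Sm proteins, fell by 0.73 in WT and 0.74 in KO, and Smn1, the core of the assembly complex, by 0.49 and 0.63. None of 16 SR-related proteins and SR kinases passed the test in either genotype. Ptbp3 rose in both, from 129.8 ± 8.53 to 218 ± 42.1 in WT (0.67) and from 132 ± 5.64 to 198 ± 9.62 in KO (0.54), and Rbm17 (0.57) and Dhx16 (0.46) rose in WT.

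At 2 h after irradiation no splicing factor gene passed the test in either genotype, where 0.156% of all genes did in WT and 0.127% in KO. At an unadjusted p under 0.05 there were 0 genes in WT and 1 in KO, beside 1436 and 1415 of all 17736 probe sets. The median log2 difference was 0.02 in WT and 0.02 in KO, and the median 95% interval reached 0.30 to either side. Values ran from -0.25 (Srsf5) to 0.28 (Sf3b3) in WT and from -0.33 (Srsf9) to 0.68 (Snrpd3) in KO. Among the genes lower at 24 h, Sf3a1 differed at 2 h by 0.12 in WT and -0.01 in KO, and Srsf2 by -0.09 and 0.19.

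Snrpd3, which encodes the Sm ring protein SmD3, had the largest 2 h difference in KO. In KO it read 594, 594 and 651 growing, 821, 1048 and 1129 at 2 h, and 630.1 and 634 at 24 h, so the 2 h arrays lay above all other KO arrays. In WT it read 663, 551 and 784 growing, 617, 485 and 888 at 2 h, and 471 and 439 at 24 h. Its 2 h difference in KO was 0.68 (0.31 to 1.05) with an adjusted p of 0.254, and it did not pass the test.

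With the hybridisation run as a block the Snrpd3 value in KO was 0.77 (adjusted p = 0.0124), and within runs 3 and 4 it was 0.80 and 0.78. Between genotypes at 2 h the chosen probe set gave 0.61, and its 2 dimmer ones gave 0.11 and -0.31. The dimmer ones had mean intensities of 43.6 and 8.07, the latter below the filter value of 11.9. Their change from growing KO cells is not given here. The genotypes' 2 h differences differed for Snrpd3 by 0.71 (unadjusted p = 0.0103, adjusted p = 0.343), and at an adjusted p under 0.05 the 2 h interaction held 0 of 43 splicing factor genes and 0% of all genes.

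None of the other 2 h differences passed the test. Sf3b3, a beta-propeller subunit of SF3b, read 617, 669.7 and 668 in growing WT and 781, 768 and 826 at 2 h, without overlap (0.28, adjusted p = 0.687), and 502 and 552 at 24 h. In KO it read 756, 599 and 744, then 836, 623 and 755, then 449.9 and 735. Sf3b6, the subunit that touches the branch-point adenosine region, read 233, 343 and 265 in growing KO and 341, 319 and 332 at 2 h (0.24), with 228 and 312 at 24 h. WT cells gave 371, 249 and 342, then 333, 284 and 288, then 266 and 293, and these overlapped. Hnrnpk, a poly-C binding protein, differed by 0.21 in KO at 2 h, where it read 1182, 1095 and 911 growing, 1315, 1312 and 1067 at 2 h, and 1268 and 1067 at 24 h. In WT it read 1427, 945 and 1462, then 1300.2, 1151 and 1308, then 768 and 1175, and its groups overlapped throughout. At 24 h in WT all 4 Hnrnpk probe sets lay below 0, from -0.62 to -0.39 for the chosen one. Of these, 2 fell, and 0 of 4 did in KO. Srsf11 differed by -0.20 in KO at 2 h.

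KO cells were compared with WT cells in each state. By the fit, 0 of 43 genes passed the test in any of the 3 states. In growing, 2 h and 24 h cells 0.263%, 0.439% and 0.0585% of all genes did so. At an unadjusted p under 0.05 there were 1, 5 and 2 of the 43 genes, beside 1878, 2636 and 1701 of all 17736 probe sets. Median log2 differences in the same order were 0.03, 0.02 and 0.13, where all genes had -0.04, 0.05 and 0.01. At 24 h the difference was above 0 for 34 of 43 genes and below 0 for 9, where 49.1% of all genes were below 0. Leaving out 1 array at a time, the median of the 43 genes at 24 h ran from 0.04 to 0.20. The 2 genotypes' arrays at 24 h did not overlap for 13 genes, with KO higher for 10 of them and lower for 3. Of all genes, 19% were higher and 15.7% lower in KO without overlap at 24 h. The median 95% interval reached 0.30, 0.30 and 0.37 to either side.

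Averaged over the 3 states, 1 gene passed the test by its chosen probe set: Hnrnpul2, an hnRNP U relative that takes part in DNA end resection in human cells, was higher in KO by 0.33 ± 0.09 (adjusted p = 0.0384). Over all genes 2.13% were higher in KO by that measure. Hnrnpul2 read 261, 219 and 185 in growing WT and 284, 285 and 247 in growing KO, which overlapped. At 2 h it read 202, 245 and 191 in WT and 245, 239 and 294 in KO, and at 24 h 228 and 198 in WT and 293 and 287 in KO. The call was lost in 14 of 27 alternatives, with an adjusted p of 0.198 without the second hybridisation day. A second, dimmer Hnrnpul2 probe set gave 0.12 (adjusted p = 0.571). Dimmer probe sets of 2 other genes were higher in KO by the same measure. The second Hnrnpa2b1 probe set was at 0.49 (adjusted p = 0.0338), 2 dimmer ones at 0.37 and 0.33 without passing, and the chosen one at 0.08. For Srsf1 it was the dimmest of 6 (0.67, adjusted p = 0.0476), and the chosen one was at -0.06.

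Other genes lay near that threshold. Snrpa1, a U2 protein gene, was lower in KO by 0.30 over the states without passing the test (adjusted p = 0.0731). It read 583, 381 and 374 in growing WT and 352, 338 and 303 in growing KO, and the genotypes did not overlap in any of the 3 states, at 404, 396 and 394 against 338, 295 and 377 at 2 h and 333 and 319 against 269 and 268 at 24 h. Sf3b4 differed by 0.32 (adjusted p = 0.0748), and its 2 h arrays were 539, 650.3 and 659 in WT and 732, 849.7 and 999.5 in KO. Snrpd3 differed by 0.32 (adjusted p = 0.108).

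Differences between genotypes in a single state were largest for Snrpd3 at 2 h (0.61, adjusted p = 0.133), followed by Sf3b4 at 2 h (0.47, adjusted p = 0.185) and Snrpd3 at 24 h (0.46, adjusted p = 0.515). With the replicate number as a block the 2 h value of Snrpd3 was 0.61 with an adjusted p of 0.0364, and with the run as a block 0.62 with 0.0244. At 24 h Srsf2 had a value of 0.44, which was -0.07 without WT 24 h replicate 1. Srsf9 had values of -0.05, -0.40 and -0.27 in the growing, 2 h and 24 h states, and its 2 h KO arrays of 429.6, 666 and 363 were uneven. Hnrnpf, a G-tract binding protein, read 1468, 1196 and 1296 in WT and 1120.0, 1107 and 1043 in KO at 2 h (-0.27, adjusted p = 0.278). Growing cells gave 1230.3, 1365 and 1302 in WT and 1134, 1099 and 1265 in KO, and at 24 h the arrays read 1030.0 and 997 in WT and 899.9 and 1065 in KO.

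**Figure D4:**
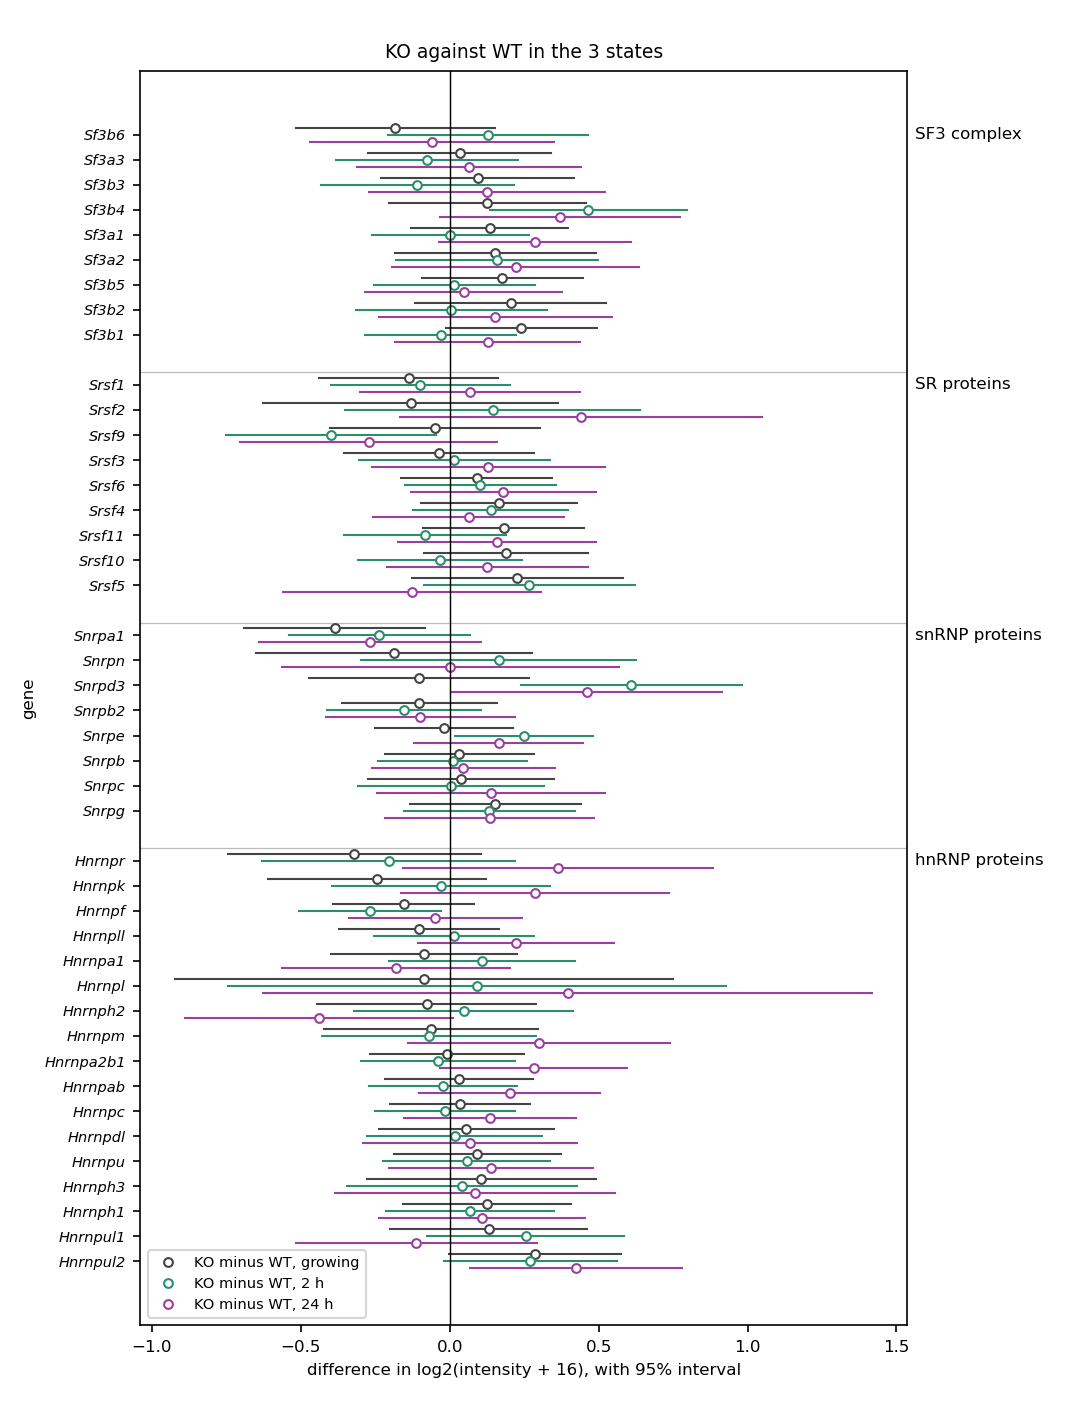
KO minus WT difference in log2(intensity + 16) for all 43 genes, in growing cells (grey), at 2 h (green) and at 24 h (purple), with 95% intervals. No point passed the test in a single state. Hnrnpul2 lies above 0 and Snrpa1 below 0 in all 3 states.

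Averaged over the states, 2.13% of all genes were higher and 2.32% lower in KO. Of the other splicing genes, 0 of 120 passed the test between genotypes in any single state. Over the states 4 of them were higher and 3 lower in KO, and a difference from the share of all genes was not tested. The higher ones were Usp39, which supports entry of the tri-snRNP (0.40), Dhx8 (0.32), Snrnp70 of the U1 particle (0.30) and Luc7l (0.30). The lower ones were the epithelial regulator Esrp1 (-0.48), Snrnp27 (-0.47) and Mbnl1 (-0.46). Esrp1 averaged 181 ± 18.4 in growing WT and 137 ± 20.7 in growing KO (SD, n = 3 each).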

How the data were processed

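Total RNA was measured on 16 Affymetrix mouse arrays in 6 groups. The authors deposited 1 linear intensity per probe set and array, scaled so that the mean after trimming 2% at each end is 100; the sources used here do not name the summarising software. Symbols came from the platform annotation. Of 22690 probe sets, 64 were controls, 20380 had 1 symbol and 17736 were tested, those with a group mean above the 30th percentile of all values. The fit was limma 3.58.1 (R 4.3.3) on log2(intensity + 16), with 6 group means, a trend in the prior variance and Benjamini-Hochberg adjustment over all tested probe sets. Fold changes are on the log2(intensity + 16) scale, which understates the change of dim genes. The fit was tested on simulated data. The number of arrays limits the precision. Instrument files, per the file headers, gave 4 hybridisation runs, the last of them on a second day. Same-numbered replicates were not correlated in every pair of every comparison, so no block was used. Promoters were from RefSeq, read in Python 3.11.15 with pandas 2.3.3; genes with several windows used the first.

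Values on all arrays are given for genes with an adjusted p under 0.05 in any of 10 comparisons, the 2 brightest genes of each family, and the 3 largest rises and falls between genotypes or times, 31 genes in all. Other splicing genes are named if they passed the test, at most 3 per direction and comparison, with further ones chosen after their values were seen. The members and lists were chosen with earlier results of these data known. The inactivated gene and 1 hnRNP gene are not reported here.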

Additional observations from a re-analysis of the deposited data

How the results depend on the processing

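Over 27 alternatives for each of 56 gene results, 1371 of 1512 values kept their direction and their side of the threshold, 132 lost the call, 3 gained it (Snrpd3, given above) and 6 reversed. Leaving out 1 array at a time, the reversed results ran from -0.070 (without WT 24 h replicate 1) to 0.95 for Srsf2 between genotypes at 24 h, from -0.67 to 0.39 (without growing WT replicate 3; 0.07 without 2 h WT replicate 1) for Hnrnpl in WT at 2 h, from -0.022 (without WT replicate 1) to 0.42 for Hnrnph3 in WT at 24 h, from -0.27 (without KO replicate 1) to 0.62 for Hnrnph3 in KO at 24 h, and from -0.053 (without KO replicate 2) to 0.36 for Sf3b5 in KO at 24 h. None of these had passed the test.

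The number of genes lower in WT at 24 h, 11, became 4 without the second hybridisation day, 6 without the 2 arrays of high 18S signal, and 7 without the variance trend, and it ran from 0 to 11 leaving out 1 array at a time. In KO, 6 became 3 without a filter, 0 without the second day, 3 without the trend, 10 when only probe sets of at least 100 were fitted (chosen after seeing the data) and 14 when any probe set of a gene counted, and it ran from 0 to 7 leaving out 1 array. For the genotype difference over the states, 1 became 0 without the second day or without the trend, 2 without the 18S arrays, 3 with probe sets of at least 100, 3 with any probe set, and 0 to 2 leaving out 1 array. The cause of these moves was not tested. Across the alternatives the median of the 43 genes at 24 h ran from -0.39 to -0.27 in WT and from -0.30 to -0.17 in KO.

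With the replicate block, 12 genes were lower in WT and 8 in KO at 24 h, 1 (Snrpd3) differed between genotypes at 2 h, and 4 did over the states. With the run block the genotype comparison at 2 h gave 1, KO at 2 h gave 1, and the comparison over the states gave 2. Same-numbered arrays had correlated deviations in every pair for WT at 2 h against growing (3 pairs, 0.198 to 0.292). For KO against WT at 24 h the correlation was 0.257. With 2 arrays a group the deviations mirror each other, so both pairs give this same value and count as 1. No splicing factor gene was called in either comparison. The counts of 0 in the other comparisons were 0 in all fits that left out 1 array.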
